A study of Homo sapiens with 16 samples.

Results

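The genes described here are 50 neighbours on the long arm of chromosome 19, in band 19q13.2, that were chosen because they were higher in the pancreatic cancer cell line PANC1 than in MiaPaCa2. They span 2056.8 kb of GRCh37, from SPINT2, which begins at position 38734675, to AKT2, which ends at position 40791443, and they are 50 of the 63677 genes in the count table. The counts of each gene were found by its identifier, and 49 genes were placed on the genome by that identifier, while FCGBP was placed by its symbol. Both lines are established human pancreatic carcinoma lines, labelled Mia-PaCa-2 and PANC-1. Each was sampled after 24 h in 4 groups, untreated control, 40 nmol/L gemcitabine, a nucleoside analogue that stops DNA synthesis, 50 µmol/L genistein, a soy isoflavone, and both drugs together, here called co-treatment. Every group had 2 biological replicates, called I and II, which makes 16 libraries of poly-A RNA. The study asked how genistein changes the response to gemcitabine. A single line stands for each background, so a difference between PANC1 and MiaPaCa2 is a difference between these 2 lines and their culture histories.

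A gene block of this kind mixes genes of unrelated function that share only their place on the chromosome. In some pancreatic tumours and lines the segment around AKT2 and PAF1 is known to be present in extra DNA copies, and genes inside such a segment can be transcribed more as a group. DNA copy number was not measured in these libraries, so its part in the levels below was not tested. AKT2 is a serine/threonine kinase of the insulin and PI3K pathway, and PAF1 is the core subunit of a complex that travels with RNA polymerase II during elongation. The remaining genes include parts of the proteasome, the ribosome, mitochondrial import and translation initiation, kinases, surface proteins and zinc finger proteins.

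Several neighbours in the block are head-to-head pairs, in which 2 genes start close together and point away from each other. They are shown because both genes of a pair share 1 stretch of DNA before their starts, so their line differences and drug responses can be read side by side. With starts taken from the annotation, 7 such pairs had starts within 500 bases of each other, and the 4 with 100 to 300 bases between them are printed on the plus strand of GRCh37, as 1 stretch between the starts. AKT2, the last gene of the block, and FBXO27 are added as the 250 bases before their RefSeq start, on their own, minus strand. FBXO27 passed the tests below for each drug treatment in MiaPaCa2, though for genistein not in every alternative setting. The annotation used for the pairs has other outermost starts, at 40791443 for AKT2 and 39523425 for FBXO27. By that annotation both windows lie mostly inside the genes. Capitals mark GGGCGG (the GC box), CCAAT (the CCAAT box), CCGGAA (the core of many ETS factor sites) and TATAAA (the TATA box) on either strand, so that CCAAT on the opposite strand reads ATTGG.
PAF1-MED29: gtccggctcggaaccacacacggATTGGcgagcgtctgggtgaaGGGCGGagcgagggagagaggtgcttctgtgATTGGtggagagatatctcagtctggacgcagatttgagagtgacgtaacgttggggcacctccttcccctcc
RPS16-SUPT5H: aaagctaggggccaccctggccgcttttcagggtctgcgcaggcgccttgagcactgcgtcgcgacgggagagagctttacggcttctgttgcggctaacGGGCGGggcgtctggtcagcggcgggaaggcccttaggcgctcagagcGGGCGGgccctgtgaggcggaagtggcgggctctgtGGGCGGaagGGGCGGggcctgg
SARS2-MRPS12: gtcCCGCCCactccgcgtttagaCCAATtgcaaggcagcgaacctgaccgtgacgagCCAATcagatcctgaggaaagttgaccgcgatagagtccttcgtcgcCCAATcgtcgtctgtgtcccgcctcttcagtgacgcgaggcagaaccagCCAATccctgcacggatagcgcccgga
MAP4K1-EIF3K: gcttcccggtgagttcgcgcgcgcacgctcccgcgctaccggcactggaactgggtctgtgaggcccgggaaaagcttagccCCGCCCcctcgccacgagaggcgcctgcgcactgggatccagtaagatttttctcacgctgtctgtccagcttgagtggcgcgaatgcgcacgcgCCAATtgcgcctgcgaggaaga
AKT2 upstream: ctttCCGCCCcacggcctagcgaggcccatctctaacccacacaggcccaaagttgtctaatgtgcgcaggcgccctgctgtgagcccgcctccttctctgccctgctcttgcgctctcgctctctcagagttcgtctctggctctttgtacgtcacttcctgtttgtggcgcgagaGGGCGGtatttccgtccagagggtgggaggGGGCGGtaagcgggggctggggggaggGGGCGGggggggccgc
FBXO27 upstream: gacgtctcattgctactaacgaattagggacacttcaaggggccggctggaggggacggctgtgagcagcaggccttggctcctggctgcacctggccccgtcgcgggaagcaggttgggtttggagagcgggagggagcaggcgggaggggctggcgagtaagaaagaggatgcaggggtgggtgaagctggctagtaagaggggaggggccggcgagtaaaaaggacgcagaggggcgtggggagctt

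These windows lie at chr19:39881795-39881942, chr19:39926590-39926795, chr19:39421404-39421583, chr19:39109523-39109721, chr19:40791253-40791502 and chr19:39523190-39523439, in the order printed. The PAF1-MED29 window of 148 bases held 1 GC box and 2 CCAAT boxes. Among 35116 RefSeq promoters (GRCh38.p14) cut to the same length before the start, 36.6% held a GC box and 23.3% a CCAAT box. The SARS2-MRPS12 window of 180 bases held 4 CCAAT boxes and 1 GC box, the RPS16-SUPT5H window of 206 bases held 4 GC boxes and no CCAAT box, and the MAP4K1-EIF3K window of 199 bases held 1 of each. The shares of promoters with a CCAAT box at those lengths were 26.2%, 28.5% and 28.0%, and with a GC box 38.9%, 40.5% and 40.0%. AKT2 held 4 GC boxes in 250 bases, a motif found in 42.6% of promoters at that length, while FBXO27 held none of the 4 motifs. No window held CCGGAA, present in up to 14.5% of promoters at these lengths, or TATAAA, present in 6.61% to 10.7%, and no match overlapped a match of another motif. These matches describe letters only, and no binding was measured.

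The smallest library held 12943482 gene-assigned reads and the largest 31991860. The 50 genes took 0.378% to 0.482% of them in the 8 MiaPaCa2 libraries and 3.18% to 3.81% in the 8 PANC1 libraries. Values per library are given as CPM, gene counts brought to a common library size with TMM factors, which allow for differences in library composition, and comparisons between genes use FPKM, which is also scaled to transcript length. The epithelial keratins KRT8, KRT18 and KRT19 were above 1 FPKM in both lines, whereas KRT7, EPCAM and CDH1 were so only in PANC1 on average. The summed FPKM of 4 acinar markers reached at most 0.390 in any library, of 3 endocrine markers at most 0.170 and of 2 endothelial markers at most 0.0777. Of 3 leukocyte markers, PTPRC and CD3E reached at most 0.0146 and 0.0236 FPKM, while CD68, a lysosomal protein, ran from 14.2 to 37.6 FPKM in MiaPaCa2 and from 108.3 to 221 in PANC1. The mesenchymal sum, nearly all of it VIM, ran from 2340.4 to 3879 FPKM in MiaPaCa2 and from 1413 to 2746 in PANC1. CDH2, of the same list, went the other way, with at most 0.0102 FPKM in MiaPaCa2 and 8.06 to 13.0 in PANC1. The ranges of ZEB1 and FN1 overlapped between the lines. The part of these marker differences in the results below was not tested. In the fit of all 16 libraries, the GC content of transcripts moved with single libraries, with slopes of 0.26 and -0.07 log2 per 10 percentage points in PANC1 controls I and II. The block genes had a median exon GC content of 57.0%, against 48.1% for all genes tested, and 40 of 49 were higher in PANC1 control I than in control II, against 56.0% of all genes.

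The rule that chose the genes used the difference between the untreated lines, so the differences in this and the next paragraphs are descriptions and carry no test. Of the 50 genes, 49 passed the filter on low counts, and RASGRP4, a Ras exchange factor of blood cells, had no count in any library. 48 of the 49 had a higher fitted value in the PANC1 controls. Their median log2 difference was 3.38, beside 0.06 for all 17863 genes fitted, and 46 met, in the direction of PANC1, the thresholds used for calls (adjusted p of at most 0.05, a log2 value of at least 0.4 in size and a mean FPKM above 1), beside 27.9% of all genes. All 8 PANC1 libraries lay above all 8 MiaPaCa2 libraries for 40 of the 50 genes, beside 22.5% of all genes fitted. Both counts were largely fixed by the choice of the genes, so neither is a test. In MiaPaCa2, 7 of the 50 genes had at most 5 counts in every library. Apart from RASGRP4, those genes passed the filter only through PANC1, where they were higher. Among treated libraries the median difference was 3.20 with gemcitabine, 3.10 with genistein and 3.17 with co-treatment. By size, 1 gene was below 0, 2 lay between 0 and 1, 9 between 1 and 2, 18 between 2 and 4, 14 between 4 and 6, and 5 above 6.

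**Figure D1:**
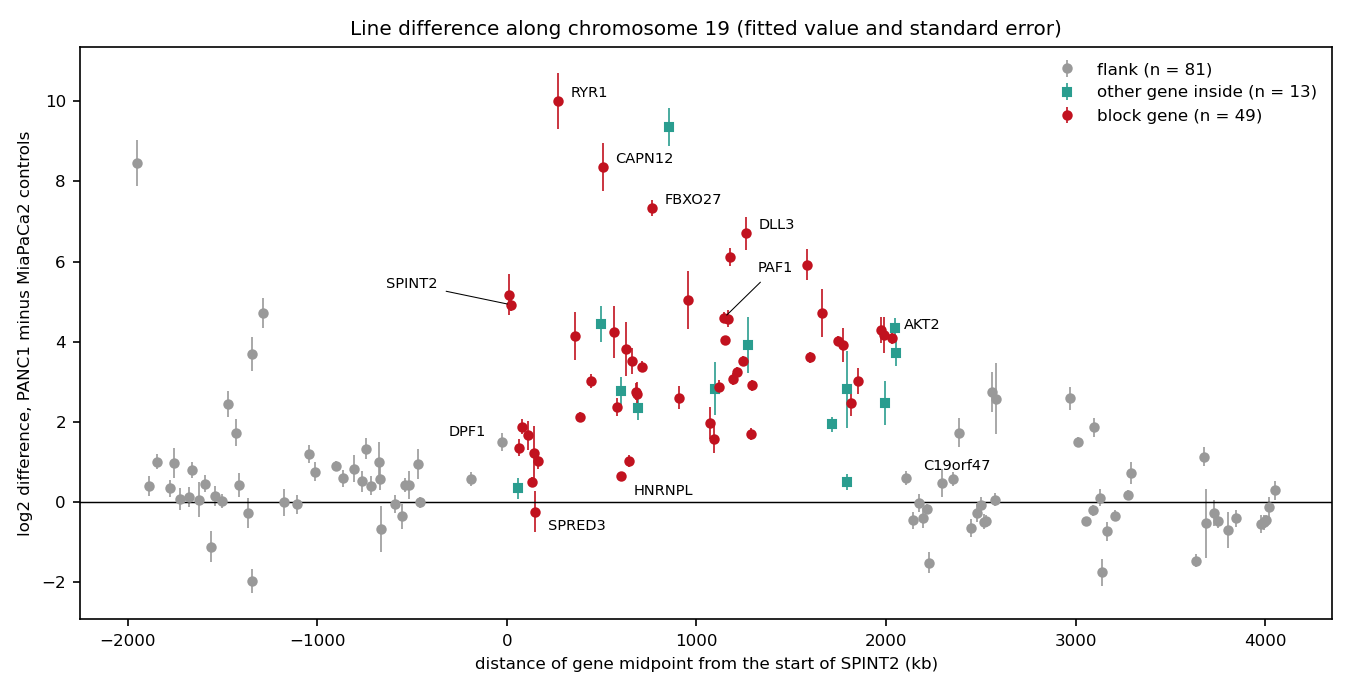
Fitted log2 difference between PANC1 and MiaPaCa2 controls (vertical axis, bars are standard errors) against the distance of each gene's midpoint from the start of SPINT2 in kb (horizontal axis), for 49 block genes, 13 other genes inside the block and 81 genes within 2 Mb on either side. The differences fall from 4.10 at AKT2 to 0.60 at C19orf47 at the right edge, while the left edge steps from 4.92 at SPINT2 to 1.49 at DPF1. The block genes were chosen by this difference, so these steps were largely fixed by the choice.

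The difference changed along the block. The first 25 genes, of which 24 were fitted, had a median of 2.72, and the last 25 a median of 3.92. SPINT2, a Kunitz-type inhibitor of serine proteases and the first gene, gave 19.8 and 22.2 CPM in the MiaPaCa2 controls and 717 and 568 in the PANC1 controls, a difference of 4.92 ± 0.16 (SE). PPP1R14A, an inhibitor of myosin phosphatase that lies within the SPINT2 interval, gave 2.86 and 5.21 and 173 and 112.5, a difference of 5.18 ± 0.51. Neither gene's PANC1 libraries overlapped those of MiaPaCa2 in any treatment. The 7 genes that follow, from YIF1B to FAM98C, were less raised, with values from -0.24 in SPRED3 to 1.88 in KCNK6. At the other end, TTC9B, a tetratricopeptide repeat protein, had 1 and 2 counts in the MiaPaCa2 controls and 57 and 63 in the PANC1 controls, a ratio of 22.7 (exact 95% counting interval 7.59 to 111.8). This interval and the others of its kind below pool the replicates of a group. They cover counting error alone and leave out the spread between replicates.

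The nearest genes outside the block had smaller differences than the genes at its 2 ends. The genes were chosen by this difference, so such a step was largely fixed by the choice. Before SPINT2, the nearest fitted protein-coding genes were DPF1 at 1.49 ± 0.22 (SE), SIPA1L3 at 0.58 ± 0.18 and ZNF573 at 0.95 ± 0.36. DPF1 lay above several block genes near that end, such as YIF1B at 1.36 and FAM98C at 1.04. After AKT2 they were C19orf47 at 0.60 ± 0.18, PLD3 at -0.46 ± 0.22 and PRX at -0.03 ± 0.22. Between AKT2 and C19orf47, adjacent in this order, the fitted value went from 4.10 to 0.60. Genes within 2 Mb before the block had a median of 0.46 (n = 41), genes within 2 Mb after it had -0.24 (n = 40), and all 1130 fitted genes of chromosome 19 outside the block had -0.06. Large single differences also occurred in the flanks, up to 8.47 in the non-coding RNA gene LINC00665, near the far end of the 2 Mb before SPINT2. The annotation placed 13 fitted genes inside the block that are not among the 50. All 13 were above 0, with a median of 2.81 and a range from 0.34 in C19orf33, which shares 12.9% of the exon length of YIF1B on the other strand, to 9.36 in ACP7. Some of them, such as ACP7, SELENOV and CTC-471F3.6, had 0 FPKM in the MiaPaCa2 controls and passed the low-count filter mainly through PANC1. For these a value above 0 was largely fixed by the filter. MIR641 and ENSG00000205041 lie within the AKT2 interval and may share its reads. Of 21 other annotated protein-coding genes in the interval, 20 were in the count table, and 16 of those had at most 20 counts in every library.

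The highest fitted differences belonged to RYR1, CAPN12, FBXO27, DLL3 and PLEKHG2, of which RYR1 and CAPN12 had almost no reads in MiaPaCa2. RYR1, the ryanodine receptor that releases calcium in muscle, had 2 and 1 counts in the MiaPaCa2 controls and 3125 and 3894 in the PANC1 controls. That is a ratio of 1329 after scaling (exact 95% counting interval 455 to 6448), with a fitted log2 value of 10.01. No more than 3 RYR1 counts were seen in any MiaPaCa2 library, whereas every PANC1 library held between 122 and 174 CPM. The muscle markers were otherwise low, since only ACTA1 of MYH1, CKM, ACTA1 and CACNA1S had a mean above 1 FPKM, and it did so in both lines. CAPN12, a calpain protease, had 3 and 1 counts against 1167 and 1531, a ratio of 383 (150 to 1408), and its exons overlap those of ACTN4 on the opposite strand over 14.6% of their length, so reads of the 2 genes may not be separated there.

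FBXO27, an F-box protein that recognises glycoproteins for ubiquitin ligases, gave 4.56 and 5.13 CPM in the MiaPaCa2 controls and 891 and 694 in PANC1, a difference of 7.33 ± 0.20. DLL3, an inhibitory Notch ligand, gave 1.03 and 0.996 against 126 and 97.0, a difference of 6.71 ± 0.42. PLEKHG2, a guanine nucleotide exchange factor, gave 15.7 and 17.1 against 1329.7 and 991, a difference of 6.12 ± 0.23. These 3 genes did not overlap between the lines in any of the 16 libraries. FBXO27 has a paralog, FBXO17, next to it, and reads with several alignments had been removed, so the split of reads between the copies is uncertain. FBXO17 itself differed by 3.38. LGALS4, NCCRP1 and RINL had 3 or fewer counts in each MiaPaCa2 control, and their ratios were 21.6 (5.78 to 182), 57.4 (10.1 to 2289) and 18.4 (6.10 to 90.6).

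At the other extreme were SPRED3, PSMD8, HNRNPL, SIRT2 and FAM98C. SPRED3, a Sprouty-related inhibitor of Ras signalling, gave 0.790 and 0.613 CPM against 1.15 and 0.375, a fitted difference of -0.24 ± 0.52, and its lines overlapped. PSMD8, a lid subunit of the 19S proteasome, gave 319 and 347 against 552 and 408, a difference of 0.50 ± 0.13. HNRNPL, a splicing regulator, gave 197 and 197 against 321 and 297, a difference of 0.64 ± 0.07. PSMD8 and HNRNPL were among the better covered genes of the block in both lines. SIRT2, an NAD-dependent deacetylase, differed by 1.02 ± 0.15, and FAM98C by 1.04 ± 0.21. The 10 genes whose libraries overlapped between the lines were CATSPERG, PSMD8, GGN, SPRED3, FAM98C, RASGRP4, HNRNPL, SIRT2, LRFN1 and GMFG.

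**Figure D2:**
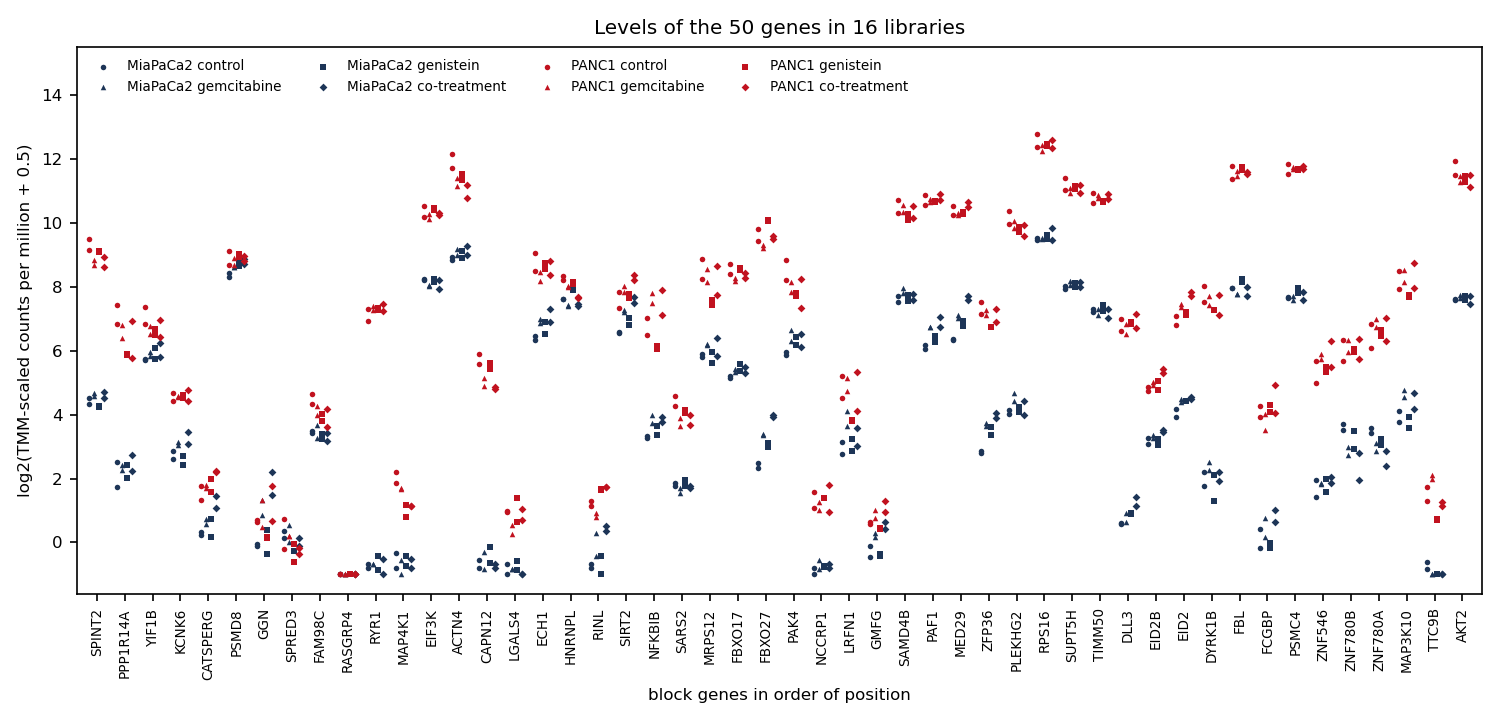
Level of each of the 50 genes in the 16 libraries, as log2 of TMM-scaled CPM plus 0.5 (vertical axis), with genes in order of position (horizontal axis), MiaPaCa2 in blue and PANC1 in red, and 1 symbol per treatment. For 40 genes every red point lies above every blue point, and the gap between the lines is wider than the scatter among treatments of a line for genes such as AKT2, PAF1 and PSMC4.

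Among signalling genes, of which 11 were fitted, the median difference was 4.10 and 10 were above 0. AKT2 gave 190.4 and 197 CPM in the MiaPaCa2 controls and 3886 and 2885 in the PANC1 controls, a difference of 4.10 ± 0.17 (SE), or 17.2-fold. Every PANC1 library held at least 2224 CPM and no MiaPaCa2 library more than 212. By mean control FPKM, AKT2 was rank 772 of 19489 protein-coding genes in MiaPaCa2 and rank 21 in PANC1. DYRK1B, a dual-specificity kinase, differed by 5.92, MAP3K10, a mixed lineage kinase, by 4.30, PAK4, a p21-activated kinase, by 2.61 and NFKBIB, an inhibitor of NF-kB, by 3.51.

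The 10 genes grouped under transcription had a median difference of 3.13. PAF1 gave 66.0 and 72.2 CPM in the MiaPaCa2 controls and 1860.3 and 1508 in the PANC1 controls, a difference of 4.59 ± 0.14 (SE), or 24.2-fold. MED29, a Mediator subunit that starts 148 bases away on the other strand, differed by 4.03, so the genes on both sides of the first printed window were higher in PANC1. Close values were also found for RPS16 (3.08) and SUPT5H (3.23), the latter encoding the SPT5 elongation factor, and for SARS2 (2.75), the mitochondrial seryl-tRNA synthetase, and MRPS12 (2.69), a mitochondrial ribosomal protein. Other pairs had fitted values further apart, with SIRT2 at 1.02 beside NFKBIB at 3.51 and GMFG at 1.57 beside SAMD4B at 2.88. MAP4K1, a kinase of blood cells, lay at 4.14 ± 0.59 beside EIF3K at 2.13 ± 0.12. MAP4K1 had at most 5 counts in any MiaPaCa2 library, so its value is uncertain. GGN at 1.23 ± 0.66 beside SPRED3 at -0.24 ± 0.52 had errors too wide to read a gap. SUPT5H is listed at 0 FPKM in PANC1 control II, gemcitabine II and genistein II although those libraries held 66587, 41153 and 28080 of its counts. With that 0 in its control mean, SUPT5H still ranked 228 among protein-coding genes in PANC1.

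Housekeeping genes, 10 in number, had a median of 2.72 and included the highest levels of the block. RPS16, a small ribosomal subunit protein with pseudogene copies that make its reads uncertain, had a mean FPKM of 2384 in MiaPaCa2 and 20782 in PANC1 and was the top protein-coding gene of the PANC1 controls. FBL, the methyltransferase fibrillarin, reached 373 in MiaPaCa2 and 4638 in PANC1, PSMC4, a proteasome ATPase, 135 in MiaPaCa2 and 2292 in PANC1, and TIMM50, a mitochondrial import subunit, 233 in MiaPaCa2 and 2549 in PANC1. Block genes made up 1 of the top 100 protein-coding genes in the MiaPaCa2 controls and 10 in the PANC1 controls, and 8 and 21 of the top 500. The group of surface, secreted and other membrane proteins (9, RYR1 and YIF1B among them) had a median of 4.24, and the remaining group of 7 a median of 4.16. Both cytoskeletal genes were higher, ACTN4, the alpha-actinin that crosslinks actin, at 3.03 and GMFG, an actin debranching factor, at 1.57. At the isoform level, PAF1 had the same leading isoform in both lines, which held 94.0% and 88.4% of its FPKM in the PANC1 controls and 95.8% and 94.2% in the MiaPaCa2 controls, whereas AKT2 was spread over 42 annotated isoforms, of which the leading one held between 17.6% and 23.8%.

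The drug comparisons below were tested within each line by limma-voom with Benjamini-Hochberg adjustment over all genes, and a call needed the 3 thresholds given above, with the FPKM threshold in the first-named group. They use the control libraries that also entered the difference by which the genes were chosen. The labels do not say how the replicate cultures were kept apart, so the p-values measure the spread between these libraries.

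In MiaPaCa2, gemcitabine raised 12 block genes and lowered 2 of the 43 tested, which is 32.6% beside 29.6% of all genes. By direction, 15% of all genes were called higher and 14.6% lower. GGN, a testis protein, stood at 0.426 and 0.460 CPM in the controls and 1.995 and 1.32 with gemcitabine (1.75 ± 0.54 (SE), adjusted p = 0.0225). It was near the floor in the controls and reached the low-count filter mainly through treated libraries. Its call is therefore counted but not read as a change. Neither limma-trend on FPKM nor 1 model for all 16 libraries called it. FBXO27 went from 4.56 and 5.13 to 9.79 and 9.94 (0.98 ± 0.17 (SE), adjusted p = 7.14e-04), and LRFN1, a neuronal adhesion protein, from 6.26 and 8.35 to 16.6 and 11.95 (0.92 ± 0.23 (SE), adjusted p = 0.00741). The groups did not overlap for any of these. ZFP36, the mRNA decay factor tristetraprolin, went from 6.51 and 6.82 to 12.8 and 11.95 (0.84 ± 0.16 (SE), adjusted p = 0.00149), and MAP3K10 from 13.1 and 16.9 to 26.8 and 22.9 (0.69 ± 0.18 (SE), adjusted p = 0.0104). PAF1 went from 66.0 and 72.2 to 106.8 and 106.6 (0.58 ± 0.11 (SE), adjusted p = 0.00153), and its neighbour MED29 from 81.6 and 80.5 to 131 and 139 (0.68 ± 0.09 (SE), adjusted p = 1.55e-04). Both PAF1 and MED29 were thus higher in each gemcitabine library than in each control. SIRT2, NFKBIB, PAK4, ECH1 and PLEKHG2 rose by 0.45 to 0.63.

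The genes that fell were the zinc finger paralogs ZNF780B, from 12.5 and 11.03 to 7.37 and 6.23 (-0.85 ± 0.25 (SE), adjusted p = 0.0184), and ZNF780A (-0.61 ± 0.19), whose similarity leaves the split of their reads uncertain. AKT2 stood at 212 and 199.95 with gemcitabine beside 190.4 and 197 in the controls, a log2 change of 0.04 ± 0.09 that was not called (adjusted p = 0.779 by limma-voom). FBXO27, PAF1, MED29 and ZFP36 were called in all 11 alternative settings and all 4 fits without a library. The count of 14 fell to 5 without gemcitabine I or without control I, to 9 without control II, and to 8 after correction for GC content (6 higher, 2 lower), which also brought the median of the genes from 0.20 to 0.05. ECH1, SIRT2, NFKBIB, PAK4, PLEKHG2, MAP3K10 and ZNF780A were not called after that correction, which called 4284 of 15757 genes in all. The slopes on GC content were -0.20 and -0.12 log2 per 10 percentage points in the MiaPaCa2 controls and 0.12 and 0.04 with gemcitabine.

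**Figure D3:**
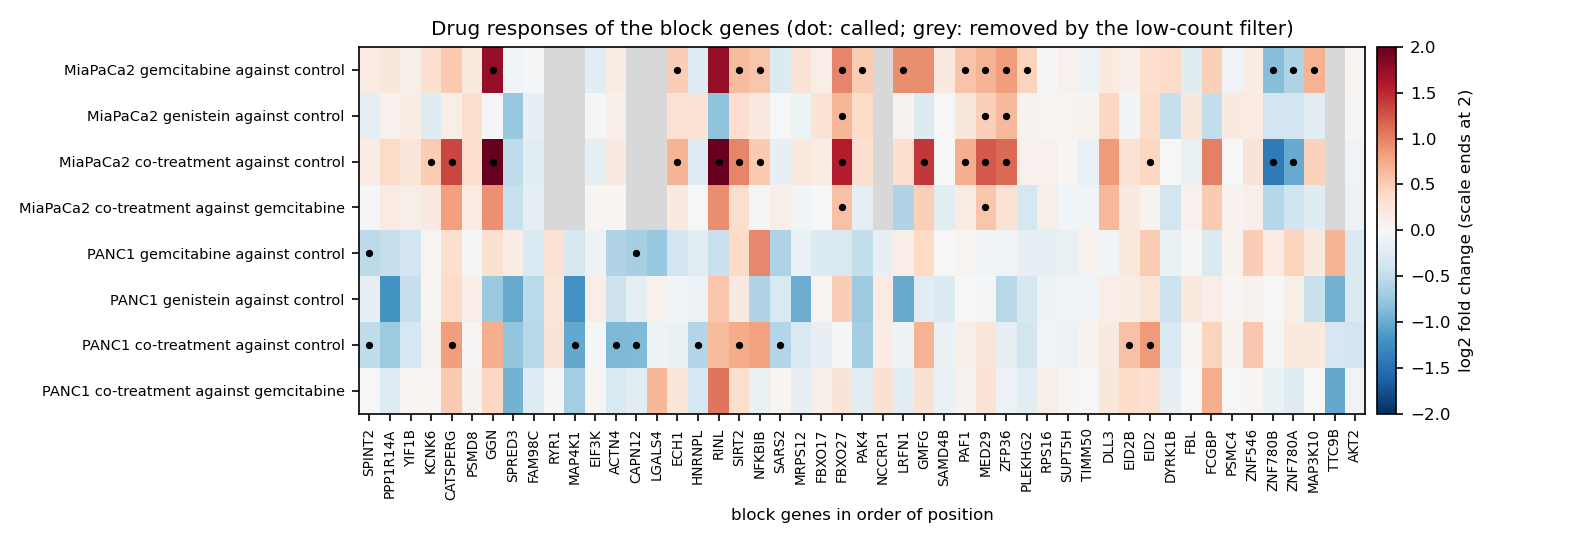
Log2 fold change (colour, ending at 2 in either direction) of 49 block genes in order of position (horizontal axis) in 8 drug comparisons (vertical axis), with a dot for each call and grey where the low-count filter removed the gene. Most dots of the MiaPaCa2 gemcitabine and co-treatment comparisons are on raised genes (12 of 14 and 13 of 15), while PANC1 co-treatment has 4 raised and 6 lowered genes.

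Genistein alone raised 3 block genes in MiaPaCa2 and lowered none, 6.98% of the 43 beside 8.31% of all genes (4.18% higher, 4.13% lower). FBXO27 reached 8.14 and 7.46 CPM (0.67 ± 0.17 (SE), adjusted p = 0.0272), ZFP36 11.7 and 9.82 (0.65 ± 0.16 (SE), adjusted p = 0.0243) and MED29 122 and 108.05 (0.48 ± 0.09 (SE), adjusted p = 0.00822). All 3 were above both controls in both genistein libraries, and each also passed the test with gemcitabine. Of the 11 alternative settings, FBXO27 and MED29 were called in 7 and ZFP36 in 9. No block gene was called when genistein I, control I or control II was left out. PAF1 at 0.23 ± 0.11 and AKT2 at 0.02 ± 0.09 did not pass.

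With co-treatment, 13 of the 43 genes were called higher in MiaPaCa2 and 2 lower, 34.9% beside 40.5% of all genes (20.3% higher, 20.2% lower). RINL, a Rab exchange factor relative, is counted among the 13 with 2 and 1 counts in the controls and 13 and 12 with co-treatment, a ratio of 8.40 (exact 95% counting interval 2.56 to 43.5). It entered the test only through treated libraries, where it was higher, and its call was lost without either control and with limma-trend on FPKM, so it is given as values and not as a change. GGN and GMFG were also low in the controls, with 7 and 6 and 7 and 3 counts, and reached the low-count filter mainly through treated libraries. Their calls are likewise counted but not read as changes. GGN stood at 2.27 and 4.15 CPM (2.67 ± 0.52 (SE), adjusted p = 8.97e-04). GMFG stood at 0.852 and 1.05 beside 0.426 and 0.230 in the controls (1.41 ± 0.45 (SE), adjusted p = 0.0180). FBXO27 rose to 14.6 and 15.3 (1.57 ± 0.16 (SE), adjusted p = 7.16e-06). FBXO27 lay above its controls in both libraries and below the 593 CPM of the lowest PANC1 library. CATSPERG, a subunit of a sperm cation channel, rose from 0.669 and 0.766 to 1.63 and 2.24 (1.33 ± 0.38 (SE), adjusted p = 0.0101). MED29 rose to 189 and 208 (1.23 ± 0.09 (SE), adjusted p = 6.05e-07) and PAF1 to 106.8 and 132 (0.73 ± 0.11 (SE), adjusted p = 1.54e-04). ZFP36, SIRT2, ECH1, NFKBIB, KCNK6 and EID2 rose by 0.41 to 1.13. Of these, KCNK6 was called in only 5 of the 11 alternative settings and NFKBIB in 7. ECH1 and EID2 were not called in either setting with GC correction.

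ZNF780B fell to 6.39 and 3.36 (-1.42 ± 0.28 (SE), adjusted p = 0.00102) and ZNF780A to 6.82 and 4.75 (-1.0009 ± 0.20 (SE), adjusted p = 0.00116). In the FPKM table the change of ZNF780A was 0.03 on the log2(FPKM + 1) scale, and 0.02 with gemcitabine alone, both of the opposite sign, and the cause was not tested. AKT2 stood at 176 and 208 (-0.07 ± 0.09 (SE), adjusted p = 0.519 by limma-voom), not called. GGN, SIRT2, FBXO27, PAF1, MED29 and ZFP36 were called in every one of 11 settings and 4 fits without a library. GMFG was lost in 3 of those 4 fits and with DESeq2, and CATSPERG in 2 of them, with DESeq2 and with limma-trend on FPKM. After correction for GC content 10 genes were called higher and 5 lower, beside 6170 of 15757 genes called in all. Of these 15 block genes, 11 were among the calls above, and the median went from 0.26 to -0.05. Against gemcitabine alone, co-treatment raised 2 genes, 4.65% beside 5.88% of all genes (4.05% higher, 1.83% lower). They were FBXO27 (0.59 ± 0.14 (SE), adjusted p = 0.0222) and MED29 (0.55 ± 0.09 (SE), adjusted p = 0.00297), both above each gemcitabine library in each co-treatment library. No gene was called there without gemcitabine I, 1 without gemcitabine II or without co-treatment II, and 5 without co-treatment I.

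In PANC1, 49 block genes were tested. Gemcitabine lowered 2 and raised none, 4.08% beside 7.52% of all genes (4.49% higher, 3.03% lower). CAPN12 went from 58.5 and 47.9 CPM to 35.1 and 29.2 (-0.67 ± 0.14 (SE), adjusted p = 0.0282) and SPINT2 from 717 and 568 to 453 and 408 (-0.52 ± 0.12 (SE), adjusted p = 0.0386). The groups did not overlap for either gene. AKT2 went from 3886 and 2885 to 2807 and 2459.8 (-0.29 ± 0.14), lower in both drug libraries than in both controls but not called. PAF1 stood at 1728 and 1612 beside 1860.3 and 1508 (0.05 ± 0.09). No gene was called without gemcitabine I or without gemcitabine II, 1 gene, which was neither of these, was called without control I, and 8 were called without control II. After correction for GC content 9 were called, 5 of them higher, beside 3001 of 16563 genes called in all.

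Genistein alone gave no call among the 49 in PANC1 by limma-voom, beside 0.0591% of all genes. At an unadjusted p under 0.05 there were 11, a level at which no share of all genes was computed. The DESeq2 Wald test called 5 lower, beside 754 of all 16909 genes called, and edgeR's quasi-likelihood test 0, beside 12. After correction for GC content 8 were called, beside 1212 of 16563 genes. AKT2 stood at 2818 and 2497 (-0.29 ± 0.15) and PAF1 at 1642 and 1614 (0.01 ± 0.09). Co-treatment against gemcitabine alone also gave 0 calls, beside 0.0177% of all genes (0.0118% higher, 0.00591% lower), with 10 at an unadjusted p under 0.05. DESeq2 and edgeR also gave 0, beside 207 and 3 of all 16909 genes. After correction for GC content 4 were called, beside 1176 of 16563 genes.

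Co-treatment raised 4 and lowered 6 of the 49 genes in PANC1 relative to control, 20.4% beside 17.1% of all genes (10.2% higher, 6.9% lower). MAP4K1 went from 4.11 and 3.16 CPM to 1.71 and 1.72 (-1.02 ± 0.23 (SE), adjusted p = 0.0208) and ACTN4 from 4538 and 3334 to 1758 and 2317 (-0.91 ± 0.16 (SE), adjusted p = 0.00800). CAPN12 went to 27.3 and 28.5 (-0.89 ± 0.14 (SE), adjusted p = 0.00579), and with ACTN4 it shares the overlap described above. HNRNPL went from 321 and 297 to 202 and 204 (-0.58 ± 0.08 (SE), adjusted p = 0.00252). SARS2 went from 23.3 and 18.9 to 12.1 and 15.3 (-0.58 ± 0.17 (SE), adjusted p = 0.0446), and SPINT2 to 394 and 489.8 (-0.50 ± 0.12). For each of these 6 genes, both co-treatment libraries were below both controls. Not all of these calls were stable. SARS2 was called in 7 of the 11 alternative settings and SPINT2 in 8. MAP4K1 was not called by limma-trend on FPKM, and its log2 values ran from -1.21 to -0.27 over the alternatives.

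The raised genes were EID2, a transcriptional inhibitor, from 110.3 and 135 to 229 and 208 (0.85 ± 0.13 (SE), adjusted p = 0.00464), its paralog EID2B (0.59 ± 0.14), CATSPERG (0.84 ± 0.23) and SIRT2, from 226 and 163 to 296 and 330.4 (0.75 ± 0.14 (SE), adjusted p = 0.00861). EID2, SIRT2 and CATSPERG were called higher with co-treatment in each line, but DESeq2 called CATSPERG in neither line, it was lost in 3 of 4 fits without a library in PANC1, and EID2 was lost in MiaPaCa2 after correction for GC content. AKT2 went to 2224 and 2862 (-0.37 ± 0.14), not called, and PAF1 stood at 1672 and 1900.4 (0.12 ± 0.09). ACTN4, HNRNPL, SIRT2 and EID2 were called in all 11 settings and all 4 fits without a library. EID2B was called in 9 of the 11 settings. Correction for GC content brought the count from 10 to 18, with 9 in each direction, beside 4839 of 16563 genes called in all. The slopes of the co-treatment libraries were -0.14 and 0.21 log2 per 10 percentage points.

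**Figure D4:**
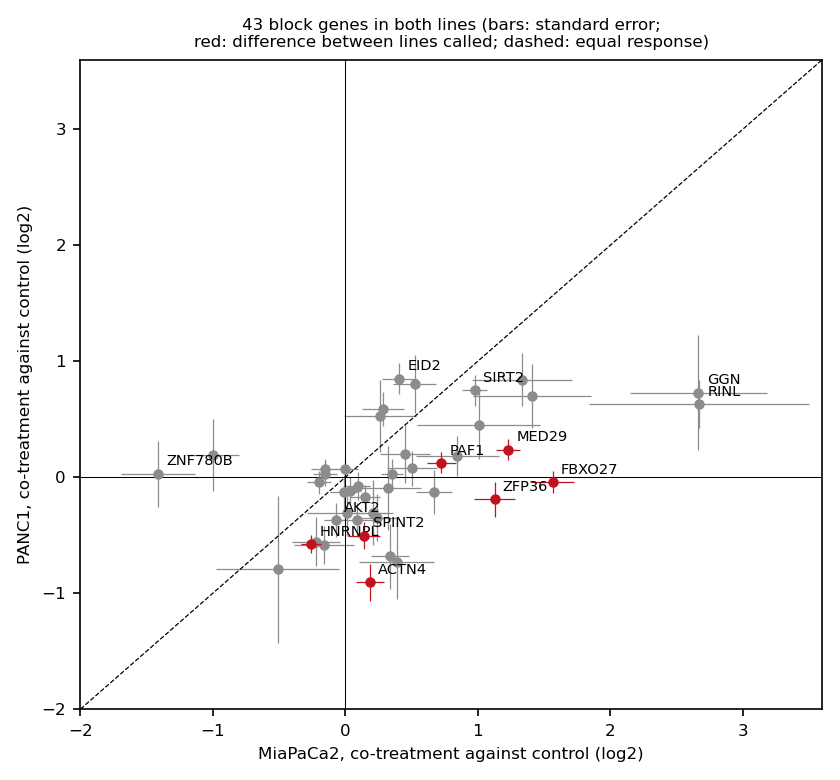
Log2 fold change of co-treatment against control in MiaPaCa2 (horizontal axis) and PANC1 (vertical axis) for the 43 block genes tested in both lines, with standard errors as bars, the line of equal response dashed, and genes whose responses were called different between the lines in red. The 7 red genes all lie below the dashed line, from HNRNPL (-0.40) to FBXO27 (-1.69).

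Whether a response differed between the lines was tested as an interaction over all 16 libraries, called at an adjusted p of at most 0.05 by limma-voom. For gemcitabine, 1 of 49 block genes was called more positive in PANC1 and 7 more negative. That is 16.3% beside 15.3% of all genes (6.21% more positive, 9.06% more negative). The more positive gene was TTC9B, with 1 and 2 counts in the MiaPaCa2 controls and 0 and 0 with gemcitabine. Its call is counted but not read as a change, because MiaPaCa2 held too few of its reads to show a response. Only 43 of the 49 had enough reads to be tested within MiaPaCa2. For the rest, no difference in response could be read. For co-treatment none was more positive and 7 were more negative, 14.3% beside 18.1% (7.38% more positive, 10.7% more negative). For genistein none was called, beside 0.0336% of all genes (0.0056% more positive, 0.028% more negative), with 5 at an unadjusted p under 0.05. DESeq2 called 3, beside 185 of all 17863 genes, and edgeR 0, beside 19. FBXO27 responded less in PANC1 to both, by -1.38 ± 0.26 (SE), adjusted p = 0.00493 for gemcitabine and -1.69 ± 0.25 (SE), adjusted p = 7.15e-04 for co-treatment. Its PANC1 libraries with co-treatment, at 727 and 766 CPM, lay within the range of the controls at 891 and 694. MED29 differed by -0.83 ± 0.16 (SE), adjusted p = 0.00603 and -1.08 ± 0.16 (SE), adjusted p = 7.15e-04, and ZFP36 by -1.01 ± 0.29 (SE), adjusted p = 0.0341 and -1.40 ± 0.29 (SE), adjusted p = 0.00552. ACTN4, which fell in PANC1, differed by -1.18 ± 0.25 (SE), adjusted p = 0.00696 for co-treatment. The difference of AKT2 was -0.43 ± 0.24 for gemcitabine and -0.38 ± 0.24 for co-treatment, not called in either.

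The medians and counts given next include the block genes that were too scarce in MiaPaCa2 to be tested there. The median difference of the 49 genes was -0.43 for gemcitabine and -0.41 for co-treatment, beside -0.08 and -0.05 for all genes. After correction for GC content these medians were -0.03 and -0.08. Then 14 genes were called for gemcitabine, beside 4485 of 17488 genes in all, and 17 for co-treatment. Without PANC1 control II, 19 genes were called for gemcitabine, 19 for co-treatment and 3 for genistein. For gemcitabine the count was 4 without PANC1 gemcitabine I, 3 without PANC1 control I, and 2 without PANC1 gemcitabine II or any one of the 4 MiaPaCa2 control and gemcitabine libraries. For co-treatment it was 15 without PANC1 co-treatment II, 4 without PANC1 co-treatment I, MiaPaCa2 co-treatment II or MiaPaCa2 control II, and 3 without MiaPaCa2 control I. MED29 was called for gemcitabine in all 8 of these fits, FBXO27 in 7, and ZFP36 and PAF1 in 1 each.

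Genes outside the block that work with its products were not chosen by the rule, so their line difference was tested. Of the genes tested in 12 such lists, 23 were called higher in the PANC1 controls, 32 lower and 57 neither, beside 52.3% of all genes called. Their median difference was -0.04, and their highest value was 2.39, in ACTN3. In the PAF1 complex, CTR9 (1.09 ± 0.18 (SE), adjusted p = 1.32e-04) and WDR61 (0.45) were higher, RTF1 lower (-0.40 ± 0.08 (SE), adjusted p = 5.71e-04), and 2 of 5 subunits were not called. None of these approached the 4.59 of PAF1, a gene chosen by this same difference. Among the partners of SPT5, NELFE was higher (1.14) and the other 7 were not called, the lowest being CCNT2 at -0.42. Of 29 Mediator subunits 5 were higher, led by MED18 (1.44), and 12 lower, led by MED4 (-1.02).

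Among AKT kinases and the PI3K pathway, 5 of 19 were higher, led by MLST8, an mTOR complex subunit (1.66 ± 0.25 (SE), adjusted p = 5.04e-05), and 5 lower, led by PHLPP1, a phosphatase of AKT (-1.62 ± 0.14 (SE), adjusted p = 3.48e-07). AKT1 was not called (0.08), while AKT2, chosen by this difference, lay at 4.10. In the 19S proteasome, PSMD13 was highest (1.49) and PSMD12 lowest (-0.59), with 2 of 15 higher and 3 lower. In eIF3, EIF3F (0.84) and EIF3M (-1.34) were the extremes, with 2 of 12 higher and 3 lower. In mitochondrial import 1 of 9 was higher, TIMM21 (0.70), and 4 were lower, TIMM17A, HSPA9, DNAJC19 and GRPEL1, the last at -0.60. Of the box C/D proteins that work with fibrillarin NHP2L1 was lower (-0.59) and the other two were not called, NOP56 being the highest at -0.12. PAK1 (1.15) and PAK6 (0.82), kinases related to PAK4, were higher, and PAK2 was not called (0.10). Both relatives of ZFP36 were called, ZFP36L2 higher (1.11) and ZFP36L1 lower (-3.39). NFKBIE (1.20) and NFKBIZ (-1.15) were the extremes of the NF-kB inhibitors, with 2 of 4 higher and 2 lower. The alpha-actinins gave no call, since ACTN3 and ACTN2 (2.35) stayed under 1 FPKM and ACTN1 (0.27) had an adjusted p of 0.0750 by limma-voom.

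**Figure D5:**
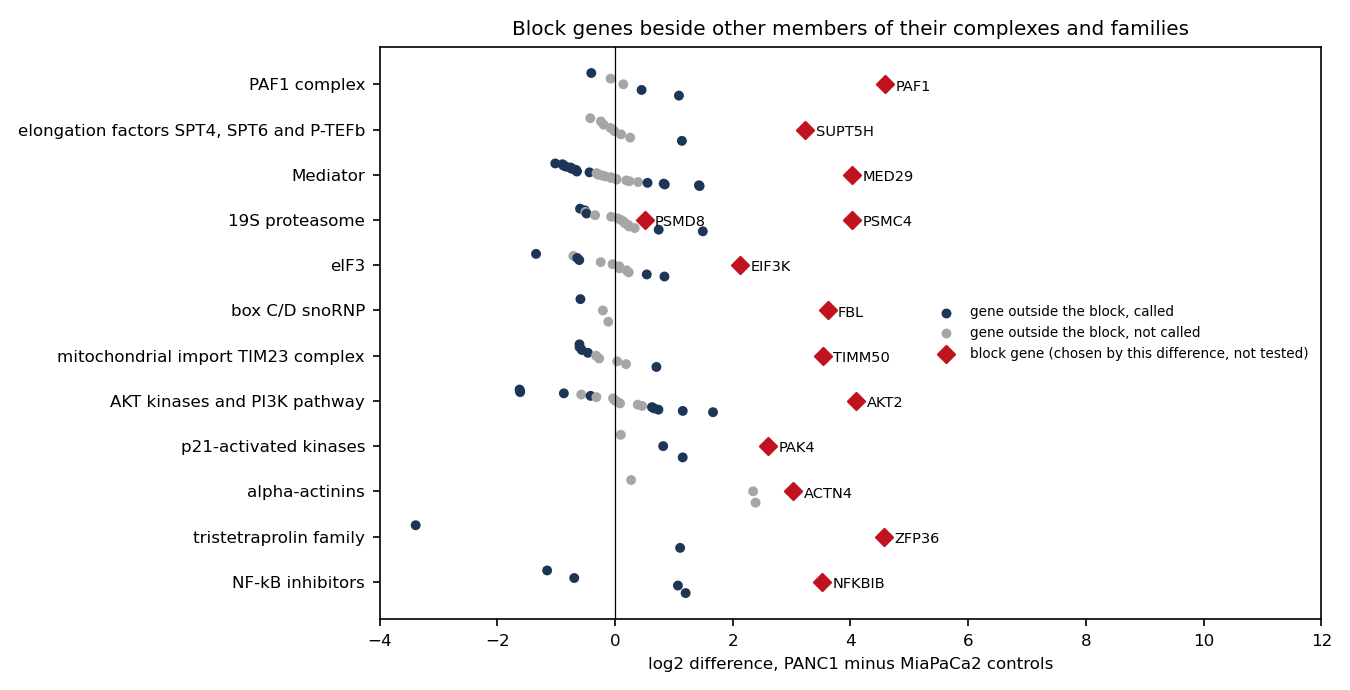
Log2 difference between the PANC1 and MiaPaCa2 controls (horizontal axis) for the tested genes outside the block in 12 complexes and families (rows, circles, dark where called) and for the 13 block genes that belong to them (diamonds). Apart from PSMD8 at 0.50, each diamond lies to the right of every circle in its row. The diamonds were chosen by this difference and the circles were not, so that order was largely fixed by the choice.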

How the data were processed

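Poly-A RNA of 16 libraries (2 cell lines, 4 groups, 2 replicates each) was sequenced as single reads of 50 bases with a strand-marking kit. Per the labels and the study's methods, the authors mapped reads to GRCh37 with TopHat2 2.0.4, handled alignments with SAMtools and Picard 1.29, which dropped multiply aligned reads, and counted them per gene with HTSeq 0.6.1. The strand setting and annotation release are not given in the sources used here. The gene counts, as deposited, are unnormalized whole numbers, and the authors' FPKM per gene and per isoform came from Cufflinks 2.1.1. Counts were TMM-scaled with edgeR 4.0.16, filtered with filterByExpr and fitted over all genes by limma-voom, from limma 3.58.1 in R 4.3.3, in the 8 libraries of a line for drug comparisons and in all 16 for line differences and interactions, with Benjamini-Hochberg adjustment. Calls needed an adjusted p of at most 0.05, a log2 value of at least 0.4 in size and a mean FPKM above 1, and interactions the adjusted p alone. The procedure was tested on simulated data. The genes, the partner lists and the rule for named genes were chosen with earlier results of these data known. The rule named AKT2, PAF1, the 2 genes at each end, the 5 largest and 5 smallest line differences, up to 5 calls per direction and drug comparison, the 3 nearest coding genes on each side, and the extremes of each partner list. MED29, SIRT2 and other genes beyond it were named after their values were seen. Alternatives were edgeR's quasi-likelihood test, DESeq2 1.42.0, other scalings, no filter, limma-trend on log2(FPKM + 1), a GC correction (loess, span 0.3), a replicate block, 1 model for all libraries, the adjusted p alone, and each replicate left out. Positions, exon GC content and overlaps came from GENCODE v44 lifted to GRCh37, which need not be the authors' release.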

Additional observations from a re-analysis of the deposited data

Results flagged for a closer look

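Drug responses that differed between the lines by an interaction test in limma-voom (adjusted p of at most 0.05) are listed here, as PANC1 response minus MiaPaCa2 response on the log2 scale. For gemcitabine the values were -1.38 in FBXO27, -1.01 in ZFP36, -0.97 in ECH1, an enzyme of fatty acid oxidation, -0.84 in ACTN4, -0.83 in MED29, -0.77 in SPINT2 and -0.63 in PAF1. TTC9B had a value of 2.73 there, which rests on 1 and 2 counts in the MiaPaCa2 controls and 0 and 0 with gemcitabine, so no fold is read from it, and neither edgeR nor DESeq2 called it. For co-treatment the values were -1.69 in FBXO27, -1.40 in ZFP36, -1.18 in ACTN4, -1.08 in MED29, -0.73 in SPINT2, -0.69 in PAF1 and -0.40 in HNRNPL. FBXO27, MED29 and ZFP36 were called for co-treatment in all 9 other settings and all 8 fits without a library. SPINT2 was lost in 4 of the 9 settings for co-treatment and in 6 of the 8 fits without a library.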

How the results depend on the processing

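The line difference kept 47 to 49 genes above 0 in all alternatives, and 49 to 60 partner genes were called. Co-treatment against control in MiaPaCa2 gave 11 to 18 calls beside 15, of which 9 were shared with limma-trend on FPKM and 11 with the GC correction, where the median turned from 0.26 to -0.05. Counts of calls that moved further follow, with the reported count in parentheses at its first mention. The cause was not tested except where a setting names it. Calls over all genes also moved, for genistein in PANC1 from 10 to 754 with DESeq2 and to 1212 with the GC correction. A change in the counts below is therefore not read as a result about the block. DESeq2 gave 1 for co-treatment against gemcitabine in MiaPaCa2 (2), 6 for gemcitabine in PANC1 (2), 5 for genistein in PANC1 (0), and 3 and 11 for the genistein (0) and co-treatment (7) interactions. Library size alone gave 5 for gemcitabine in PANC1, and no low-count filter gave 3 for the gemcitabine interaction (8). limma-trend on log2(FPKM + 1) gave 6 for gemcitabine (14), 0 for genistein (3) and 0 for co-treatment against gemcitabine in MiaPaCa2, and 0 for gemcitabine, 1 for genistein and 6 for co-treatment (10) in PANC1, with 5 for the gemcitabine interaction. The GC correction gave 8 for gemcitabine and 5 for co-treatment against gemcitabine in MiaPaCa2, 9 for gemcitabine, 8 for genistein, 18 for co-treatment and 4 for co-treatment against gemcitabine in PANC1, and 14, 3 and 17 for the gemcitabine, genistein and co-treatment interactions. With 1 model for all 16 libraries the counts were 5, 0 and 1 for gemcitabine, genistein and co-treatment against gemcitabine in MiaPaCa2, and 7, 4 and 1 in PANC1. The adjusted p alone gave 6 for genistein in MiaPaCa2.

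The labels do not say whether replicate numbers pair the libraries. Correlations of same-numbered deviations ran from -0.30 to 0.16 in MiaPaCa2 and from -0.57 to 0.33 in PANC1. After correction for GC content they ran from -0.13 to 0.03 in MiaPaCa2 and from -0.21 to 0.06 in PANC1. Such correlations cannot show whether replicates of 1 number were handled together, so the replicate block is given as an alternative only. With the replicate block the counts were 1 for co-treatment against gemcitabine in MiaPaCa2, 0 and 6 for gemcitabine and co-treatment in PANC1, and 5 for the gemcitabine interaction, with no other count moving by over 1.5 times. The replicate block with GC correction gave 8 and 5 for gemcitabine and co-treatment against gemcitabine in MiaPaCa2, 9, 6, 16 and 2 in PANC1 in the order gemcitabine, genistein, co-treatment and co-treatment against gemcitabine, and 13, 2 and 15 for the gemcitabine, genistein and co-treatment interactions.

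Leaving out 1 library at a time, the counts ran from 5 to 12 for gemcitabine, 0 to 3 for genistein, 10 to 20 for co-treatment and 0 to 5 for co-treatment against gemcitabine in MiaPaCa2. In PANC1 they ran from 0 to 8 for gemcitabine, 7 to 12 for co-treatment and stayed at 0 for the remaining comparisons. The interactions ran from 2 to 19 for gemcitabine, 0 to 3 for genistein and 3 to 19 for co-treatment, the highest always without PANC1 control II. Those fits leave 1 library in a group, which is assumed to vary like the others. In MiaPaCa2, 7 genes had at most 5 counts in every library, a depth at which no drug response could be read.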
